A study of Mus musculus with 2 samples.

Results

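Annexins are the 8 genes Anxa1, Anxa2, Anxa3, Anxa4, Anxa5, Anxa6, Anxa7 and Anxa11, and they were taken by name from a deposited table of 47643 mouse genes. Their level was followed in LPA-derived macrophages and in bone marrow monocytes. Bone marrow of wild-type C57BL/6 mice aged 6 weeks was the source of both kinds of cell, and LPA, lysophosphatidic acid, is a phospholipid that signals through receptors on the cell surface. The macrophages were monocytes that had differentiated with LPA present, and the monocytes were sequenced as such. There was 1 RNA-seq library per group and no library of cells cultured without LPA, so LPA, culture and differentiation cannot be told apart. The labels give neither the time in culture nor the way the monocytes were isolated nor the number of mice. With 1 library per group no difference has a replicate check and no test was made. All intervals are exact 95% intervals of counting error alone, and reads counted without molecular identifiers can repeat a molecule.

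Annexins are proteins that bind acidic phospholipids, above all on the inner face of membranes, when calcium rises. Each carries a conserved core of repeats that holds the calcium and lipid sites, and a variable head at the amino end that binds partners such as S100 proteins. In phagocytes they are known for roles in membrane repair, vesicle fusion and the ending of inflammation, and some of them also act outside the cell.

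The libraries held 16726342 unique exon reads in macrophages and 12473180 in monocytes, and levels are given as CPM, counts scaled by these totals. The 10407 genes with 5 CPM or more in either library were followed. All 8 annexin genes reached that level in both libraries. Markers fit the labels of the groups in direction, with 8 of 8 macrophage markers at least 2-fold higher and 6 of 6 classical monocyte markers at least 2-fold lower in the macrophages. Neutrophil markers were found in both libraries. The 11 of them summed to 7246 CPM in macrophages and 19078 CPM in monocytes. They did not go in 1 direction, with 5 at least 2-fold higher and 5 at least 2-fold lower in macrophages. Of all followed genes, 13.8% were at least 2-fold higher and 19.9% at least 2-fold lower in macrophages. In these mixed RNA samples, fewer cells of a type and less RNA per cell cannot be told apart.

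The members lie on 7 chromosomes, and their coding sequences share only short stretches. The longest exact stretch that any 2 of their coding sequences share, over 28 pairs in GENCODE M21, was 18 bases, and the median pair shared 13. Some of the longest are shown because they bound how alike the coding sequences are over an unbroken run. Untranslated parts of the exons, which were counted too, were not compared. Positions count from 1 at the start codon.

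Anxa3 and Anxa11, from position 915 in Anxa3 and 1455 in Anxa11: agatacttctggagacta
Anxa4 and Anxa5, from position 71 in Anxa4 and 68 in Anxa5: ggaaggccatgaaaggc
Anxa1 and Anxa5, from position 219 in Anxa1 and 132 in Anxa5: caatgctcagcgccag

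Coding sequences were 957 bases long in Anxa4 and in Anxa5, 969 in Anxa3, 1017 in Anxa2 and 1038 in Anxa1. They were 1455 bases in Anxa7 and 1509 in Anxa11, which have long heads, and 2019 in Anxa6, whose core is duplicated.

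The annexin family as a whole was higher in the macrophage library. It took 79675 exon reads in macrophages and 32099 in monocytes, or 4763 CPM against 2573 CPM, a 1.85-fold difference (1.83 to 1.88). That is 0.476% of exon reads in macrophages and 0.257% in monocytes. Without Anxa4 the sum of the other members was 1.69-fold higher (1.67 to 1.71). Of the 8 members, 7 were higher in macrophages by any amount, beside 39.7% of all followed genes, and Anxa6 was lower. On the scale of log2(CPM + 1), used throughout for calls, 2 of the 8 were at least 2-fold higher in macrophages, Anxa4 and Anxa5, beside 13.8% of all followed genes. None of the 8 was at least 2-fold lower, beside 19.9% of all followed genes. The median log2 ratio of the members was 0.74, against -0.23 over all followed genes.

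The count of calls depended on scaling. Once ratios were centred on the median of all genes, 4 of the 8 members were at least 2-fold higher, Anxa1 and Anxa3 being added at centred log2 ratios of 1.09 each. Of all followed genes, 17.4% were then at least 2-fold higher and 14.6% at least 2-fold lower. The count was also 4 after centring on the trimmed mean, beside 17.2% of all genes, and without the 20 highest genes in the totals, beside 16.8%. It was 3 by the authors' deposited normalized values, beside 16.2% of all genes, and 5 at a call of 1.5-fold, beside 20.8%. Anxa6 remained the only member below 0 under every scaling tried, with log2 ratios from -0.50 to -0.20.

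**Figure D1:**
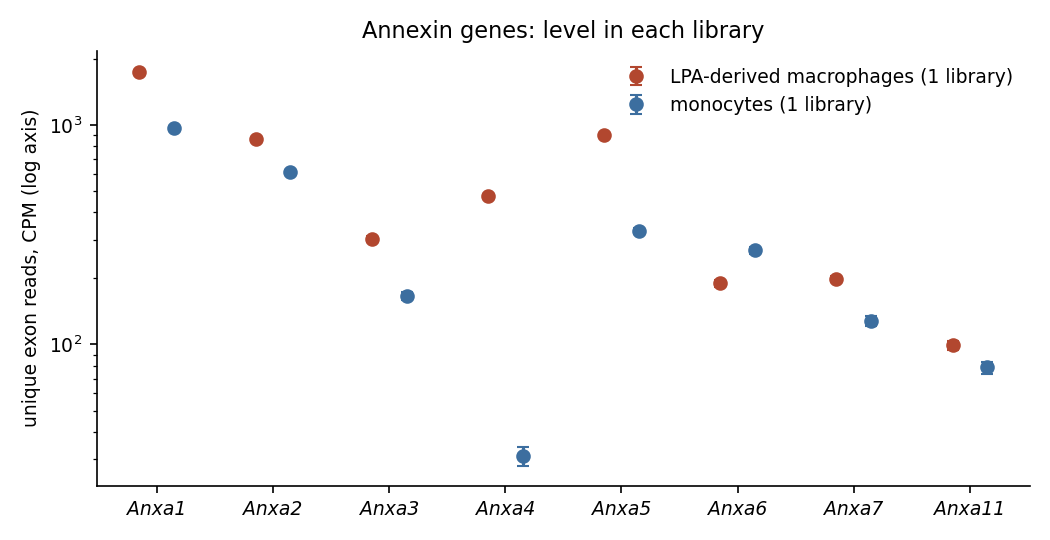
Level of each annexin gene in CPM on a log axis, with 1 library of LPA-derived macrophages (left point of each pair) and 1 of monocytes (right point). Bars are exact Poisson intervals of the read count. Anxa4 stands at 473.9 CPM in macrophages and 31.0 CPM in monocytes, and Anxa6 is the gene with the lower point in macrophages.

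Anxa4 had by far the widest difference of the family. Its protein is known chiefly from epithelia, where it lies along membranes and takes part in their repair. The gene (chromosome 6, 86736840 to 86793584, minus strand, GRCm38) had 7926 exon reads in macrophages and 387 in monocytes. The levels were 473.9 CPM (463.5 to 484.4) in macrophages and 31.0 CPM (28.0 to 34.3) in monocytes, a 15.3-fold difference (13.8 to 17.0). The ratio ranked 121 of the 10407 genes, and the authors' deposited table gives 18.2-fold. By level per kilobase it was the lowest member in monocytes at 5.61 RPKM and the fourth in macrophages at 89.9 RPKM. The authors list 9 of 9 annotated Anxa4 transcripts as detected in macrophages and 5 in monocytes, a count that more reads can raise.

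Anxa5 was the other member past 2-fold. Annexin A5 binds phosphatidylserine, the lipid that dying cells expose, and labelled annexin A5 is the common stain for them. Exon reads of the gene (chromosome 3, 36448923 to 36475894, minus strand) numbered 14981 in macrophages and 4080 in monocytes. The levels were 895.7 CPM (881.4 to 910.1) in macrophages and 327.1 CPM (317.1 to 337.3) in monocytes, 2.74-fold higher (2.64 to 2.84). It ranked 957 of 10407 by ratio and stood at 444.0 RPKM in macrophages and 154.6 RPKM in monocytes.

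The bases before the annotated starts of these genes are shown because they are the 2 members past 2-fold. RefSeq windows (GRCm38.p6) were found for 6 of the 8 members, and capitals mark CG dinucleotides.

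Anxa4, chr6:86793585-86793834, minus strand: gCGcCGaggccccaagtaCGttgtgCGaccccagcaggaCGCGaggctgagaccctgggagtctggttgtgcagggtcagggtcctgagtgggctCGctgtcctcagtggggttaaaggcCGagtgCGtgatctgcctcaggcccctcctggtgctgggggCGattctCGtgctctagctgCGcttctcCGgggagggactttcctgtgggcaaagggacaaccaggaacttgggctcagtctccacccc
Anxa5, chr3:36475888-36476137, minus strand: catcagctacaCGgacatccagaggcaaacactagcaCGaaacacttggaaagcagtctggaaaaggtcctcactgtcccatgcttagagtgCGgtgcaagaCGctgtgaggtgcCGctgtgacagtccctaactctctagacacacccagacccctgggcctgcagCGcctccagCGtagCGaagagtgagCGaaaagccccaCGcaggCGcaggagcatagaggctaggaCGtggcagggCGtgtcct

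Both windows hold 13 CG dinucleotides in 250 bases, where the median of 32851 mouse windows holds 6. Their GC content was 64.8% for Anxa4 and 58.8% for Anxa5, against a median of 52.4%. The GC box GGGCGG and the TATA box TATAAA, searched on both strands, occur in 32.7% and 12.4% of all windows, and neither occurs in these windows. RefSeq gives Anxa4 another start 18470 bases downstream, and the window before it holds 2 CG dinucleotides. Among members within 2-fold, the windows held 17 CG dinucleotides in Anxa11, 16 and 2 in Anxa7, 9 in Anxa2 and 2 in Anxa1.

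Anxa1 was the most abundant member in both libraries. Annexin A1 is secreted by phagocytes, is induced by glucocorticoids and limits inflammation through a formyl peptide receptor. The gene (chromosome 19, 20373428 to 20390944, minus strand) had 29202 exon reads in macrophages and 12046 in monocytes. Its level was 1746 CPM (1726 to 1766) in macrophages and 965.8 CPM (948.6 to 983.2) in monocytes, 1.81-fold higher (1.77 to 1.85). At 589.6 RPKM in macrophages and 311.0 RPKM in monocytes it ranked 53 in macrophages and 116 in monocytes among the followed genes by level per kilobase.

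Anxa2 lay within 2-fold. Annexin A2 pairs with S100A10 at the cell surface, where the complex binds plasminogen and its activator, and it also works in endosomes and in membrane repair. Anxa2 (chromosome 9, 69453620 to 69491795, plus strand) stood at 858.7 CPM (844.7 to 872.9) in macrophages and 608.2 CPM (594.6 to 622.0) in monocytes. That is 1.41-fold higher (1.37 to 1.45) from 14363 reads in macrophages and 7586 in monocytes.

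Anxa3, a gene known from neutrophils, where its protein is found on granules, had nearly the same ratio as Anxa1. It stood (chromosome 5, 96793339 to 96845966, plus strand) at 302.2 CPM (293.9 to 310.6) in macrophages and 166.7 CPM (159.6 to 174.0) in monocytes, 1.81-fold higher (1.72 to 1.91). The authors' deposited table puts it just past 2-fold, at 2.03. None of the 11 neutrophil markers was at 0 in either library. The highest were S100a9, with 2268 CPM in macrophages and 5403 CPM in monocytes, Ngp, with 843.6 CPM in macrophages and 5170 CPM in monocytes, and S100a8, with 1496 CPM in macrophages and 3620 CPM in monocytes. All of these were lower in macrophages, whereas 5 of the 11 markers were at least 2-fold higher there, beside 13.8% of all followed genes. In total 5 were at least 2-fold lower, beside 19.9%. The part of neutrophil RNA in the levels of Anxa1 and Anxa3 was not tested.

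Anxa6 was the exception in direction. Annexin A6 binds membranes of endosomes and the plasma membrane and takes part in cholesterol handling. The gene (chromosome 11, 54979108 to 55033445, minus strand) had 3170 exon reads in macrophages and 3346 in monocytes. This gave 189.5 CPM (183.0 to 196.2) in macrophages and 268.3 CPM (259.2 to 277.5) in monocytes, 1.42-fold lower in macrophages (1.35 to 1.49). It was within 2-fold and ranked 6539 of 10407 by ratio, and the authors' deposited signed fold is -1.15, where minus marks a lower value in macrophages.

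Anxa7 and Anxa11 are the members with long heads. Annexin A7, or synexin, promotes membrane fusion, and annexin A11 binds the calcium sensor ALG-2 and tethers RNA granules to lysosomes. Anxa7 (chromosome 14, 20455260 to 20480133, minus strand) stood at 198.3 CPM (191.6 to 205.2) in macrophages and 127.9 CPM (121.7 to 134.3) in monocytes, 1.55-fold higher (1.46 to 1.65). Anxa11, on the same chromosome (25842156 to 25886804, plus strand), was the lowest member by CPM in macrophages, at 99.4 CPM (94.6 to 104.3) there and 78.6 CPM (73.7 to 83.6) in monocytes. Its 1.26-fold difference (1.17 to 1.37) was the smallest of the family on the log scale of CPM. After centring on the median Anxa6 was nearer to 0, at a log2 ratio of -0.27, and Anxa11 stood at 0.57. Anxa6 was also the nearer of the pair under the other centring, without the 20 highest genes, by exon-exon reads and by the authors' deposited normalized values.

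**Figure D2:**
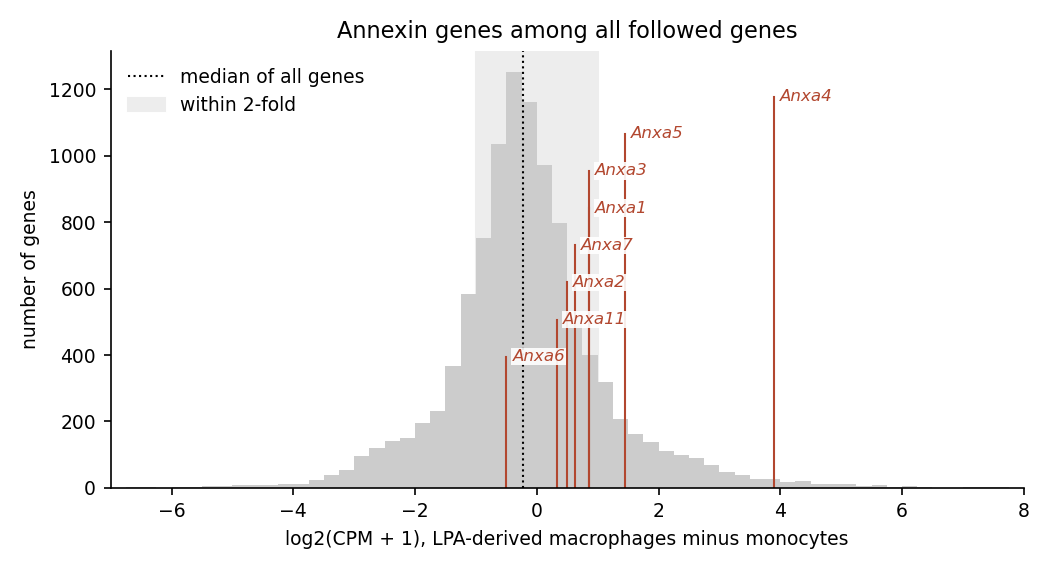
Histogram of log2(CPM + 1) in LPA-derived macrophages minus monocytes over the 10407 followed genes (number of genes per bin), with a red line for each annexin gene and a dotted line at the median of all genes. Line heights only separate the names, and the few genes beyond the ends of the axis are not drawn. Anxa4 at 3.89 and Anxa5 at 1.45 lie outside the shaded range of 2-fold, and Anxa6 at -0.50 is the member left of the dotted line.

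The order of the members per kilobase of exon differed between the libraries below the top 3 places. In macrophages the order by RPKM was Anxa1, Anxa5, Anxa2, Anxa4, Anxa3, Anxa7, Anxa6 and Anxa11. In monocytes it was Anxa1, Anxa5, Anxa2, Anxa6, Anxa3, Anxa7, Anxa11 and Anxa4. Of neighbours in these orders, Anxa7 and Anxa6 had overlapping counting intervals in macrophages, at 58.9 RPKM (56.9 to 61.0) and 57.0 RPKM (55.0 to 59.0). In monocytes Anxa3 and Anxa7 overlapped, at 38.4 RPKM (36.8 to 40.1) and 36.2 RPKM (34.5 to 38.0). The highest member was 27.9 times the lowest in macrophages and 55.4 times in monocytes. By RPKM rank, 7 members were among the top 10% of followed genes in macrophages and 4 in monocytes.

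Shares within the family do not depend on how the libraries were scaled. Only Anxa4 and Anxa5 held a larger share of the family's exon reads in macrophages than in monocytes. By gene reads, which include introns, Anxa1 did too, with 37.8% in macrophages and 36.8% in monocytes. Anxa4 made up 9.95% (9.74 to 10.2) in macrophages and 1.21% (1.09 to 1.33) in monocytes, and Anxa5 18.8% (18.5 to 19.1) in macrophages and 12.7% (12.3 to 13.1) in monocytes. Anxa6 held 3.98% (3.84 to 4.12) in macrophages, against 10.4% (10.1 to 10.8) in monocytes, and Anxa2 held 18.0% (17.8 to 18.3) in macrophages and 23.6% (23.2 to 24.1) in monocytes. Anxa1 kept the largest share in both, with 36.7% (36.3 to 37.0) in macrophages and 37.5% (37.0 to 38.1) in monocytes. Together Anxa1, Anxa2 and Anxa5 held 73.5% in macrophages and 73.9% in monocytes.

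**Figure D3:**
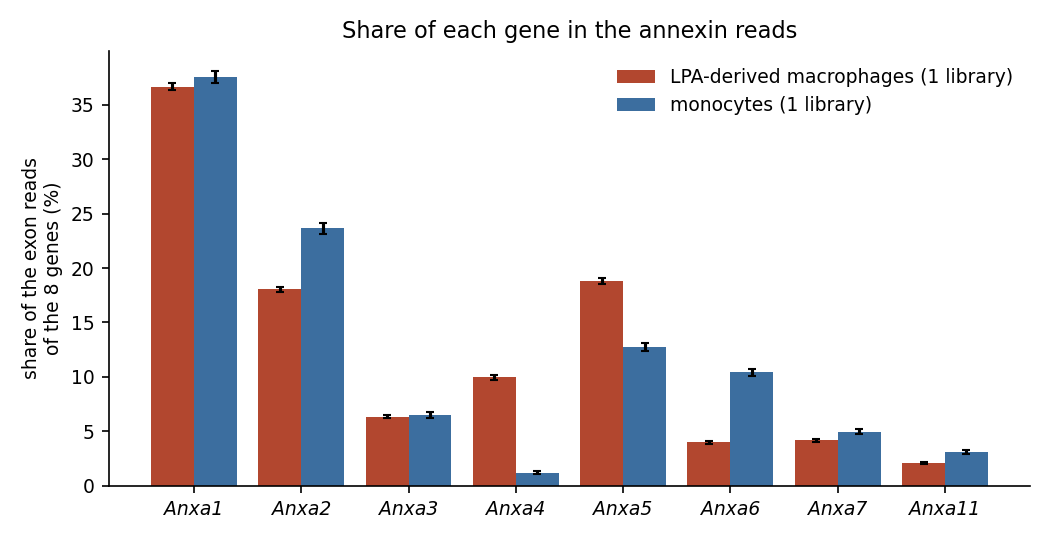
Share of each annexin gene in the exon reads of the 8 genes (percent), with LPA-derived macrophages on the left and monocytes on the right of each pair, 1 library each. Bars carry exact binomial intervals. Anxa4 and Anxa5 have the taller bar in macrophages and the other 6 genes in monocytes, Anxa6 with 3.98% in macrophages and 10.4% in monocytes.

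Reads across splice junctions, which are part of the exon reads, gave folds close to those of all exon reads. Scaled by their own totals, Anxa4 was 16.1-fold (14.1 to 18.5) and Anxa5 2.87-fold (2.76 to 2.99) higher in macrophages, and Anxa6 1.31-fold lower. The share of a member's exon reads that crossed a junction differed little between libraries, for example 58.3% in macrophages and 58.1% in monocytes for Anxa4.

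The source of the intron reads was not tested. Intron reads, which can come from RNA that is not yet spliced and do not enter the exon counts, did not follow the exon reads in every member. For Anxa5 they numbered 492 in macrophages and 808 in monocytes. They made up 3.18% (2.91 to 3.47) of its gene reads in macrophages and 16.5% (15.5 to 17.6) in monocytes. Scaled by the exon totals, Anxa5 intron reads were 2.20-fold lower in macrophages (1.97 to 2.47) while its exon reads were 2.74-fold higher. Anxa11 had 379 intron reads in macrophages and 588 in monocytes, or 18.6% (16.9 to 20.3) of its gene reads in macrophages and 37.5% (35.1 to 39.9) in monocytes. Anxa2 intron reads were 1.53-fold lower (1.36 to 1.73), with 496 in macrophages and 567 in monocytes.

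In Anxa4 and Anxa1 both kinds of read were higher in macrophages. Anxa4 had 514 intron reads in macrophages and 22 in monocytes, 17.4-fold higher (11.4 to 28.0), and Anxa1 had 4000 in macrophages and 1507 in monocytes, 1.98-fold higher (1.87 to 2.10). Anxa3 had 1624 in macrophages and 764 in monocytes, 1.59-fold higher (1.45 to 1.73). Anxa6 and Anxa7 intron folds had intervals that include 1.

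A lower intron share in macrophages was the rule in these libraries. It was found for 5 of the 8 members, beside 67.3% of all followed genes with reads in both libraries, and introns took 9.90% of all gene reads in macrophages and 14.1% in monocytes. Over the 7724 genes with at least 20 intron reads in each library, the median log2 change of the ratio of intron to exon reads was -0.47. Anxa5, at -2.59, ranked 92 from the lowest of these genes, Anxa11 at -1.40 ranked 985, and Anxa6 at 0.54 was the member farthest above the median. The labels do not say whether counting used strand. The annotated genes that overlap members had 0 exon reads in both libraries and at most 5 intron reads, among them the antisense Anxa11os and the lincRNA 1500015L24Rik, which spans Anxa1.

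**Figure D4:**
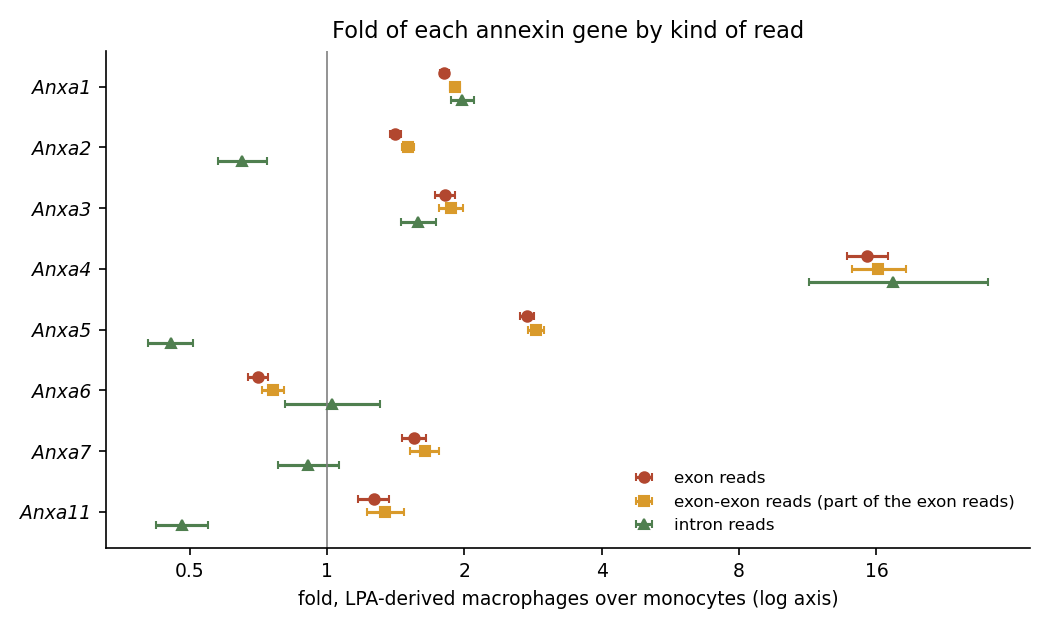
Fold of LPA-derived macrophages over monocytes on a log axis for exon reads, exon-exon reads and intron reads of each annexin gene, 1 library per group. Exon and intron reads are scaled by the exon totals and exon-exon reads by their own totals, with exact intervals. For Anxa5, Anxa2, Anxa11 and Anxa7 the intron triangle lies left of 1 and the exon circle right of it. The Anxa7 intron interval includes 1. For Anxa4 all 3 markers lie between 15 and 18.

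Of the other annexin genes of the mouse, none had more than a low level. Anxa9 stood at 11.4 CPM in macrophages and 5.69 CPM in monocytes, 1.996-fold higher (1.51 to 2.66). It was past 2-fold after centring on the median (log2 ratio 1.12) and by the authors' deposited fold of 2.51. Anxa9 overlaps the gene Mindy1, with 3144 exon reads in macrophages and 1103 in monocytes. Anxa8 had 4 reads in macrophages and 1 in monocytes, and Anxa10 and Anxa13 had 0 in both.

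Lists of genes tied to annexins by binding or function follow. Their counts are to be read beside the 13.8% of all followed genes at least 2-fold higher and the 19.9% at least 2-fold lower. Genes below 5 CPM in 1 library, such as Fpr1, Stab1 and Hsd11b1, were followed only through the library in which they are higher. Of 6 genes for proteins with EF hands that bind annexins, 5 lay within 2-fold and 1, S100a10, was lower. S100a10, whose product joins annexin A2, stood at 129.6 CPM in macrophages and 288.0 CPM in monocytes, 2.22-fold lower (2.11 to 2.34), a difference within 2-fold after centring (log2 ratio -0.91). S100a11, a partner of annexin A1, stood at 360.8 CPM in macrophages and 266.1 CPM in monocytes. S100a6, which binds several annexins, stood at 278.9 CPM in macrophages and 244.2 CPM in monocytes. Sorcin (Sri), which binds annexin A7, had 133.6 CPM in macrophages and 163.0 CPM in monocytes, and S100a4 had 115.3 CPM in macrophages and 140.1 CPM in monocytes. The ALG-2 gene Pdcd6, whose product binds annexin A11, had 73.8 CPM in macrophages and 84.0 CPM in monocytes. The Pdcd6 ratio changed sign on centring, with log2 ratios of -0.18 before and 0.05 after.

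Formyl peptide receptors, through which annexin A1 signals, were higher but at low levels. Fpr1 stood at 42.0 CPM in macrophages and 2.89 CPM in monocytes, 14.6-fold higher (10.4 to 20.96). Fpr2, the receptor best known for annexin A1, had 103 reads in macrophages and 20 in monocytes, 3.84-fold higher (2.36 to 6.55). That is 6.16 CPM in macrophages and 1.60 CPM in monocytes. Fpr1 and Fpr2 were followed only through the macrophage library, so among followed genes they could only come out higher. Fpr3 had 0 reads in both. Neutrophils express these receptors too, and the neutrophil markers, 5 higher and 5 lower of 11, ran from Cxcr2, 9.16-fold higher in macrophages, to Camp, 24.2-fold lower. The part of neutrophil RNA in the receptor levels was not tested.

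The glucocorticoid receptor and its target genes, a pathway known to induce Anxa1, had 5 of 7 members at least 2-fold lower, beside 19.9% of all followed genes, and 0 at least 2-fold higher, beside 13.8%. The median log2 ratio was -1.73, against -0.23 over all followed genes. Per1, a clock gene, stood at 42.4 CPM in macrophages and 426.7 CPM in monocytes, 10.1-fold lower (9.31 to 10.9). Tsc22d3, which encodes the glucocorticoid-induced leucine zipper, was 3.62-fold lower (3.40 to 3.85) and the chaperone gene Fkbp5 3.41-fold lower (3.03 to 3.84). Hsd11b1, the enzyme that regenerates active glucocorticoid, stood at 4.07 CPM in macrophages and 50.7 CPM in monocytes. Zbtb16 was 3.07-fold lower, at 4.13 CPM in macrophages and 12.7 CPM in monocytes. Hsd11b1 and Zbtb16 were followed only through the monocyte library, so among followed genes they could only come out lower. The receptor gene Nr3c1 had 115.7 CPM in macrophages and 160.2 CPM in monocytes.

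The 4 followed genes of plasminogen activation, the reaction that annexin A2 supports at the cell surface, were all past 2-fold, 2 of them higher (13.8% of all followed genes) and 2 lower (19.9% of all followed genes). Plau, the urokinase gene, stood at 545.7 CPM in macrophages and 29.3 CPM in monocytes. The plasminogen receptor gene Plgrkt was 2.75-fold higher (2.45 to 3.11). Plaur, the urokinase receptor gene, was 2.72-fold lower (2.60 to 2.85), with 159.7 CPM in macrophages and 434.9 CPM in monocytes. Serpinb2 was 2.51-fold lower (1.83 to 3.47), a difference within 2-fold after centring. At 3.77 CPM in macrophages, Serpinb2 was followed only through the monocyte library.

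Among genes of phosphatidylserine exposure and recognition, the lipid that annexin A5 binds, 6 of 14 were at least 2-fold higher, beside 13.8% of all followed genes, and 1 was lower, beside 19.9%. The median log2 ratio was 0.52, against -0.23 over all followed genes. The 6 are bridging molecules and receptors for dying cells. Mfge8, a bridge, stood at 775.2 CPM in macrophages and 19.7 CPM in monocytes, 39.3-fold higher (34.6 to 44.8), and the bridges Gas6 and Pros1 were 34.1-fold and 3.17-fold higher. The receptor genes Stab1, Mertk and Axl were 245-fold (181.3 to 340.4), 14.0-fold and 4.94-fold higher. Stab1 and Gas6 stood at only 3.37 and 2.89 CPM in monocytes, so they were followed only through the macrophage library. The authors' deposited table gives 155.8-fold for Stab1 and 39.2-fold for Gas6. The scramblase gene Ano6, which exposes the lipid, stood at 199.4 CPM in macrophages and 141.3 CPM in monocytes, while Plscr1 was 2.90-fold lower (2.56 to 3.28).

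Of 9 membrane repair genes 8 lay within 2-fold, and the exception was Myof, the myoferlin gene, at 675.6 CPM in macrophages and 21.9 CPM in monocytes, 30.9-fold higher (27.4 to 34.9). Dysf, the dysferlin gene, was below the level followed, with 58 reads in macrophages and 12 in monocytes. Copines and related calcium sensors had 5 of 7 within 2-fold, with Syt11 3.74-fold higher and Sytl1 3.78-fold lower. In arachidonic acid release and use, which annexin A1 is known to restrain, 5 of 7 lay within 2-fold. Pla2g7, an enzyme that cleaves platelet-activating factor, was 15.4-fold higher (14.1 to 16.9) and Ptgs2 2.33-fold lower (2.09 to 2.60), or within 2-fold after centring. The cytosolic phospholipase gene Pla2g4a had 22.5 CPM in macrophages and 35.1 CPM in monocytes. Over these 8 lists, 13 of 56 followed genes (23.2%) were at least 2-fold higher, beside 13.8% of all followed genes. The 11 lower genes (19.6%) were close to the background of 19.9%. Fpr1, Fpr2, Stab1 and Gas6 were followed only through the macrophage library, and Serpinb2, Sytl1, Hsd11b1 and Zbtb16 only through the monocyte library. The lists were chosen with earlier results of these data known, so these counts are a description only.

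**Figure D5:**
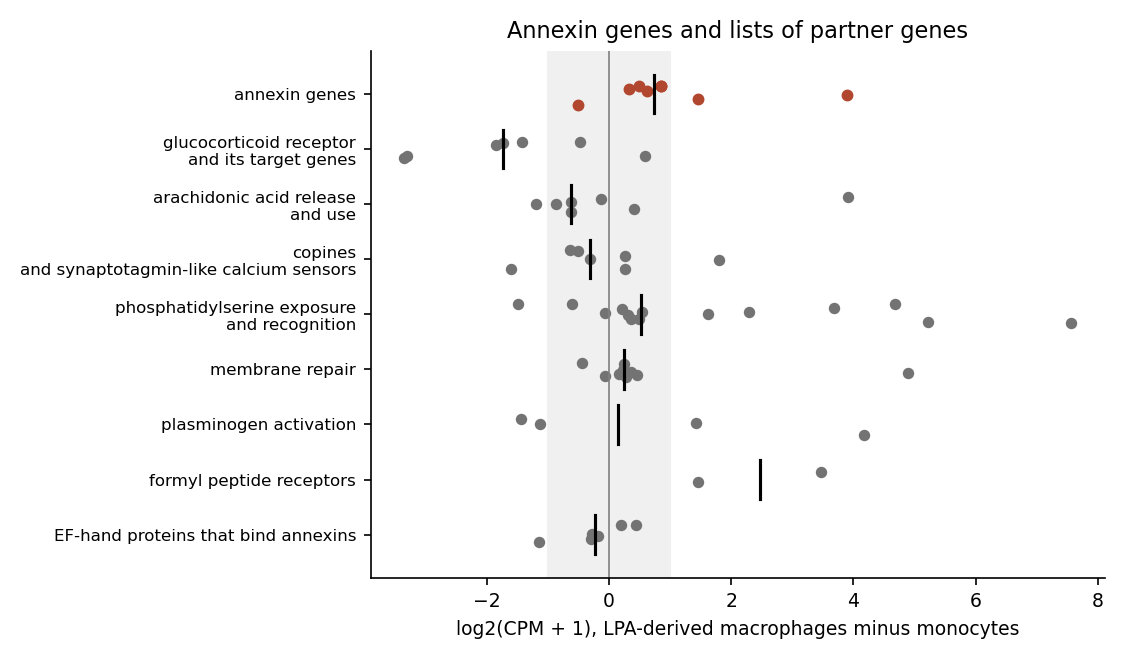
Log2(CPM + 1) in LPA-derived macrophages minus monocytes for the 8 annexin genes (red, top row) and the followed genes of 8 lists of partner genes (grey), 1 library per group. Black bars are medians, vertical scatter is only for display and shading marks 2-fold. The annexin median of 0.74 lies right of 0 and the glucocorticoid median of -1.73 left of it.

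Other cell types also differed between the libraries. Megakaryocyte and platelet markers were at least 2-fold higher in macrophages in 6 of 7 cases, beside 13.8% of all followed genes. They summed to 442.3 CPM in macrophages and 103.4 CPM in monocytes, with none at 0. Erythroid markers summed to 2.93 CPM in macrophages and 155.9 CPM in monocytes, with 5 of 8 at 0 in macrophages and none in monocytes. Markers of stromal and endothelial cells summed to 1018 CPM in macrophages and 1847 CPM in monocytes, a sum carried by Col1a1 and Col1a2. Of the 7 followed, 3 were at least 2-fold lower in macrophages (Col1a1, Col1a2 and Pecam1), beside 19.9% of all followed genes. Another 2 were at least 2-fold higher, Postn 115.0-fold and Col3a1 17.1-fold, beside 13.8% of all followed genes. Markers of eosinophils, basophils and mast cells summed to 400.4 CPM in macrophages and 2387 CPM in monocytes. Of 7 followed, 3 were at least 2-fold lower, beside 19.9% of all followed genes, and 0 at least 2-fold higher, beside 13.8%. B lineage, T and NK, and dendritic markers summed to 15.1, 3.05 and 88.5 CPM in macrophages, against 61.5, 110.2 and 193.7 CPM in monocytes. The T and NK sum in monocytes was carried by Nkg7, at 106.9 CPM, with Trac next at 0.88 CPM. The dendritic sums were carried largely by Bst2, at 86.0 CPM in macrophages and 128.0 CPM in monocytes. The part of these cells in the annexin levels was not tested.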

How the data were processed

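Trizol RNA went into NEBNext Ultra libraries, per the labels' protocols. The authors deposited counts of unique reads per gene, split into exon, exon-exon and intron reads, with RPKM beside them. The deposited normalized signal has the same sorted values in both libraries, and the authors' signed fold (a score) is its ratio, per the file headers. The deposited RPKM equal exon reads over exon length and a constant per library. Neither labels nor headers name the mapper, the read length or the strand setting. The submitters' processing notes name mm9, but with the start shifted by 1 base 40773 of 47224 gene positions equal those of GENCODE M21 on GRCm38, which is used here (7 of 8 members had equal positions).

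Groups were taken from sample titles. Exon counts were scaled to CPM. Ratios are log2(CPM + 1), macrophages minus monocytes, over genes with 5 CPM in at least 1 library (83.6 reads in macrophages, 62.4 in monocytes), and a call is 2-fold on that scale. Folds are CPM ratios with exact conditional binomial intervals, levels have exact Poisson intervals and shares Clopper-Pearson intervals, all at 95%. Folds and their intervals were checked on simulated counts of known fold. Python 3.11.15, numpy 2.4.6, pandas 2.3.3, scipy 1.17.1 and matplotlib 3.10.9 were used. The members and lists were chosen with earlier results of these data known. All members, all other annexins and all binding partners are named, with list members past 2-fold (up to 6 of the largest ratios) and up to 3 markers of a list. Plscr1, Ano6, Dysf, Nr3c1, Pla2g4a, Cxcr2, Camp, Nkg7, Trac, Bst2 and the stromal markers were named after their values were seen. A gene of the partner lists is not reported here. Alternatives were other pseudocounts, floors, scalings, read kinds and a 1.5-fold call.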

Additional observations from a re-analysis of the deposited data

How the results depend on the processing

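Under 10 alternatives, every member kept the sign of its log2 ratio, Anxa6 being the 1 below 0. The other floors and pseudocounts among them cannot change a sign, so only the scalings and read kinds bear on it. Anxa4 ranged from 3.73 to 4.19, Anxa5 from 1.31 to 1.68, Anxa1 from 0.84 to 1.09, Anxa3 from 0.84 to 1.09 and Anxa11 from 0.03 to 0.57, the last at its lowest with gene reads, which include introns. The count of members at least 2-fold higher, 2 as reported, was 4 after centring on the median, after centring on the trimmed mean and without the 20 highest genes in the totals. It was 3 with the authors' normalized values and 5 at a 1.5-fold call. The median log2 ratio of 0.74 was 0.97 and 0.96 after the centrings, 0.92 without the 20 highest genes and 0.82 with the authors' normalized values. It was 0.81 with exon-exon reads, an alternative chosen after seeing the data. Centring adds 0.23 (median) or 0.22 (trimmed mean) to every log2 ratio. The cause of the shifts with the authors' values and with exon-exon reads was not tested. Members with a larger share of the family in macrophages numbered 2, and 3 by gene reads. Calls in the partner lists stayed at 13 higher, and the 11 lower calls became 8 after centring. Over all followed genes, centring on the median moved the share higher from 13.8% to 17.4% and the share lower from 19.9% to 14.6%. Intervals cover counting error only, and with 1 library per group the spread between cultures or animals was not measured. No paired analysis was possible because each group has 1 library.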
